A study of Rattus norvegicus with 6 samples.

Results

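The genes described here carry long-chain fatty acids into the cardiac muscle cell and oxidize them in its mitochondria. They are 31 genes named for their function, though with earlier results of these data known, among 11237 genes measured in rat left atrium. All 31 had a probe set that passed the filter on dim signals. By role they fall into 8 steps, which are uptake and activation, the carnitine shuttle, control by malonyl-CoA, the acyl-CoA dehydrogenases, the hydratase to thiolase steps, the auxiliary enzymes for unsaturated chains, electron transfer, and PPARA with its targets.

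Adult male Sprague-Dawley rats had been paced through an electrode on the right atrium for 48 h, either rapidly, with a cycle length of 70 ms (RAP), or at a cycle length of 140 ms (control pacing, Con). Rats were operated on and paced in pairs of a RAP and a control rat, and the 3 pairs that gave RNA of high quality were measured. Pairs 1 to 3 are here matched by the replicate numbers of the labels, which do not state which rats were paced together. Every rat drank the beta blocker atenolol, and heparin was given before the hearts were taken. Left atrial RNA of each rat was hybridised to its own Affymetrix Rat Gene 1.0 ST array. Signals are given as log2 values, so that a difference of 1 is a doubling, and a gene was called higher or lower at an unadjusted limma p under 0.05 together with a fold change above 1.3. The tissue was whole left atrium, so that fewer cells of a type and less RNA per cell cannot be told apart.

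Long-chain fatty acids are the main fuel of the adult heart. They are freed from circulating triglyceride at the vessel wall, cross the cell membrane, are bound and activated to acyl-CoA, and pass the inner mitochondrial membrane as acylcarnitines, a transfer that malonyl-CoA holds back. Inside, each turn of beta-oxidation shortens the chain by an acetyl-CoA, and the electrons taken by the acyl-CoA dehydrogenases travel through electron transfer flavoprotein and its dehydrogenase to ubiquinone. Many of these genes are targets of the nuclear receptor PPARA.

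Of the 31 genes, 1 was called higher with RAP, Etfb, and 0 were called lower, beside 2.87% of all genes called higher and 3.28% called lower. Etfb was also the only gene of the 31 with an unadjusted limma p under 0.05, no gene of the 31 passed the methods' paired t-test, and over all genes 0 had an adjusted limma p under 0.05. Yet the mean change was above 0 for 29 of the 31 genes, against 48.8% of all genes, and the median change was 0.39 log2, against -0.007 over all genes. For 17 of the 31 the mean change was larger than 1.3-fold upward, a size that 6.89% of all genes had. The genes Acad10, which differed by -0.13 ± 0.24 (SE), and Acad11, at -0.01 ± 0.14, were the 2 with a mean change below 0.

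The 3 pairs differed widely from each other. In pair 2 all 31 genes were higher in the RAP rat, as 48.1% of all genes were, with a median difference of 1.04 log2, and 28 differed by more than 0.5, as 12.8% of all genes did. In pair 1 the RAP rat was higher for 26 genes (49.7% of all genes), with a median of 0.19, and 2 genes differed by more than 0.5, against 8.08% of all genes. In pair 3 it was higher for 13 genes (51.7% of all genes), the median was -0.04, and no gene was higher by more than 0.5, against 8.36% of all genes. Genes higher with RAP in all 3 pairs numbered 12 of 31, against 14.3% of all genes, namely Lpl, Acsl1, Cpt1b, Acadvl, Acadl, Acad9, Acaa2, Etfa, Etfb, Etfdh, Ppara and Ucp3.

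**Figure D1:**
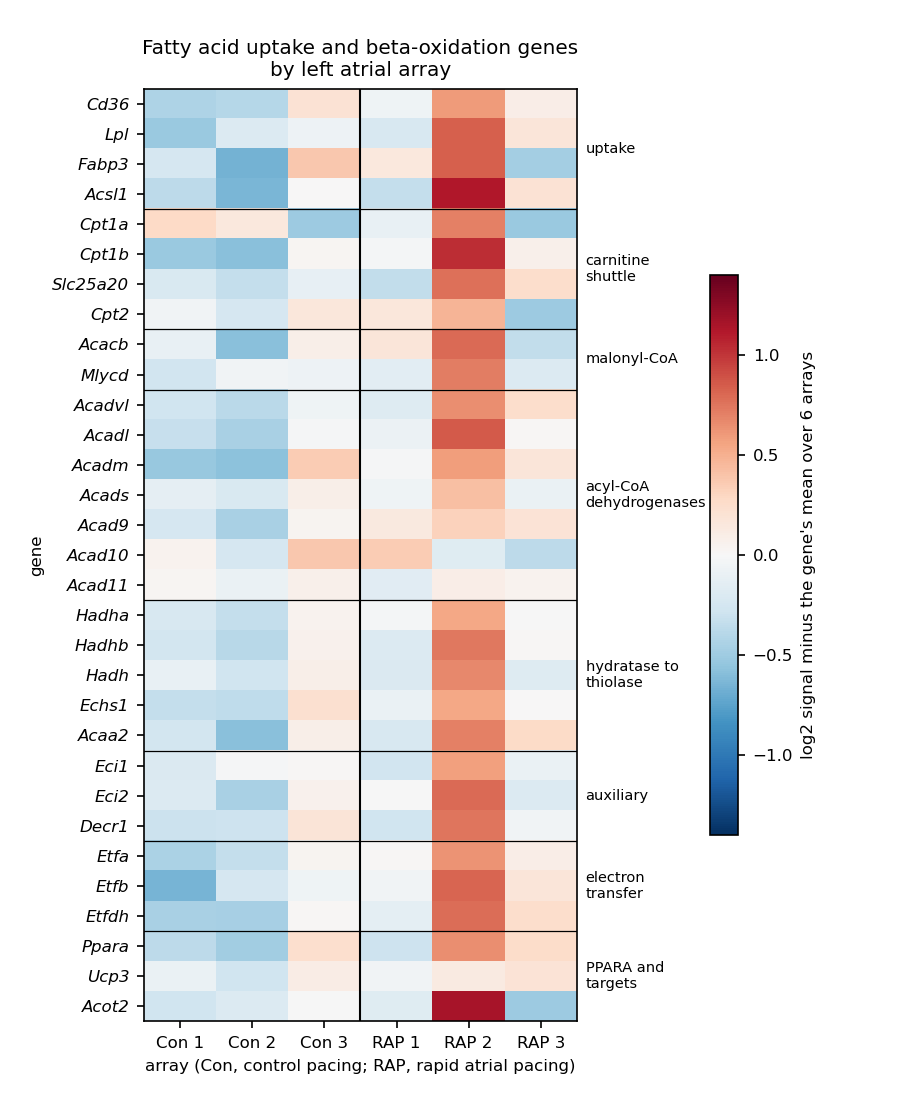
Each row is a gene and each column an array, and the colour gives the log2 signal minus the gene's mean over the 6 arrays, with control arrays left of the line and RAP arrays right of it. RAP 2 held the highest value of 29 of the 31 genes (21.8% of all genes), and Con 2 held the lowest value of 18 (17.7%).

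A single array set much of this pattern. RAP 2 gave the highest of the 6 values for 29 genes, which it did for 21.8% of all genes, and it stood above the next array by a median of 0.53 log2 and at most by 1.16. Only Acad10, highest in Con 3, and Ucp3, highest in RAP 3, departed from this. Con 3 was the highest of the 3 controls for 29 genes, against 36.6% of all genes. Con 2 gave the lowest of all values for 18, against 17.7% of all genes. When pair 2 was left out the median change was 0.05 log2 in place of 0.39, 19 genes had a mean above 0, and 0 of the 31 were called, against 1.53% of all genes called higher. Fits that left out a single array were made without pairing. In these, no gene of the 31 was called without RAP 2 (2.32% of all genes) or without Con 2 (1.81%). The paired fit without pair 3 called 9 higher, against 9.31% of all genes.

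Markers of other cells varied over the same arrays. The mean deviation of the 31 genes from their own means was -0.26, -0.34 and 0.07 in Con 1 to 3 and -0.09, 0.65 and -0.03 in RAP 1 to 3. The 15 macrophage markers measured, of 16 listed, ran at 0.18, 1.00 and -0.40 in the controls and -0.34, -0.67 and 0.23 in the RAP arrays, and their summed linear signal ranged from 5748 to 15710 in controls and from 4759 to 9838 with RAP. All 12 fibroblast markers were measured, with deviations of 0.20, 0.50 and -0.25 against -0.20, -0.50 and 0.24, and sums of 19800 to 34900 and 16040 to 29250. The 7 mesothelial markers measured of 10 ran at 0.86, -0.14 and 0.35 in controls and -0.28, -0.38 and -0.41 with RAP. Their sums were 5481 to 8970 in controls and 4193 to 4617 with RAP. Of the 7, 3 were called lower, Prg4, Wt1 and Msln, against 3.28% of all genes. Con 2, low in fatty acid genes, was thus the array highest in macrophage and fibroblast markers, and RAP 2 the lowest.

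Muscle markers varied too. The 10 atrial markers measured of 12 were highest in RAP 2, with a deviation of 0.40, and lowest in Con 2, at -0.27, and summed to 39890 to 44760 in controls and 42450 to 50740 with RAP. The atrial defining genes Nppa and Myl7 were bright on every array, at 13.40 to 13.59 and 13.61 to 13.76, while Bmp10 stayed at or under the filter. The 8 skeletal muscle markers measured of 11 ran at -0.375, -0.087 and -0.056 in controls and 0.176, 0.174 and 0.167 with RAP. Their sums were 2213 to 3161 and 3586 to 4255. Of the 8, 1 was called higher, Myl1 by 1.71 ± 0.63 log2, beside 2.87% of all genes. The 11 ventricular markers deviated most in Con 3, by 0.83, and summed to 6646 to 12020 in controls and 6617 to 11570 with RAP. In Con 3 the ventricular light chain gene Myl2 read 8.60 against 4.28 to 4.89 on the other arrays. Not all markers of the list followed, since Xdh read 9.66 in Con 3 and 10.91 and 10.52 in Con 1 and 2. Con 3 was also highest in the 6 red blood cell markers measured of 12, at 1.86, with sums of 12050 to 32250 in controls and 12430 to 19260 with RAP. Without Con 3, in a fit without pairing, the median change of the 31 genes was 0.52. That fit called 7 of the 31 higher, against 6.87% of all genes. The unpaired fit on all arrays called 2, against 3.62% of all genes. The part of these cells in the differences was not tested.

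**Figure D2:**
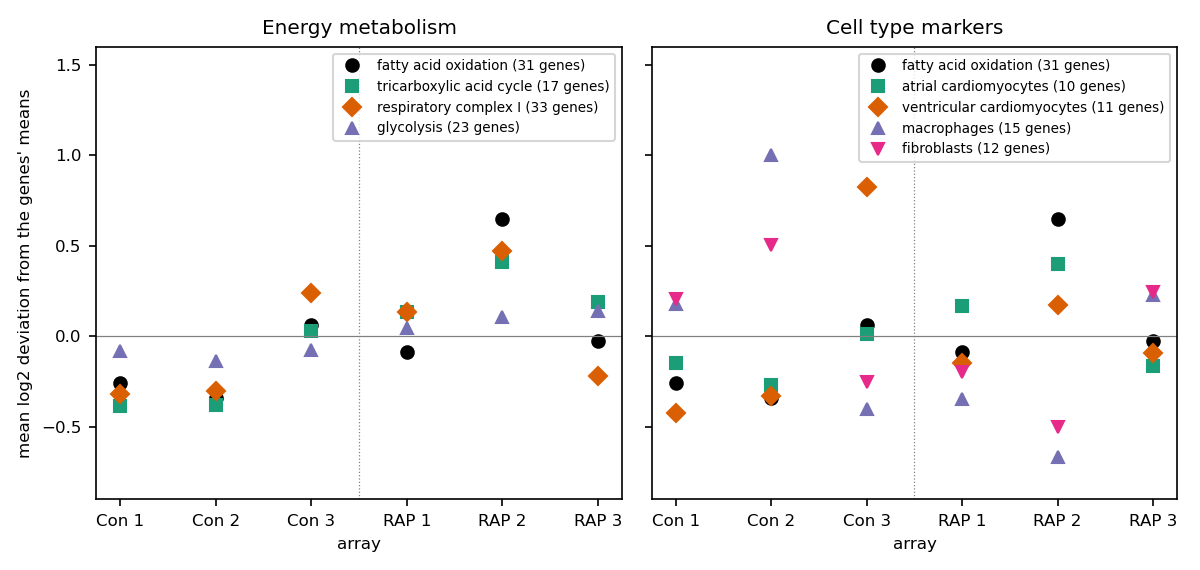
Points give, for each array, the mean log2 deviation of the genes of a list from their means over the 6 arrays, for lists of energy metabolism on the left and cell type markers on the right. The fatty acid genes, the tricarboxylic acid cycle, complex I and the atrial markers peaked in RAP 2, where macrophage and fibroblast markers were lowest. Glycolysis peaked in RAP 3.

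Electron transfer was the step with the largest median change, 0.60 log2, and the only one in which every gene was higher with RAP in all 3 pairs. Etfa and Etfb encode the subunits of electron transfer flavoprotein, which collects electrons from all the acyl-CoA dehydrogenases, and Etfdh encodes the membrane enzyme that hands them to ubiquinone. Among 17 genes listed for the tricarboxylic acid cycle, malic enzymes included, the median change was 0.52 log2. Of these, 12 were higher in all 3 pairs, against 14.3% of all genes. The promoters of the 3 electron transfer genes are printed because the step stood apart in this way among the 8 steps. Each runs from 250 bases before to 50 after the annotated start, is taken from RefSeq on build GRCr8 and reads along the gene's strand, and capitals mark GC boxes (GGGCGG or CCGCCC) and CCAAT boxes (CCAAT or ATTGG). The Etfa promoter lies at chr8:64787916-64788215 on the minus strand, that of Etfb at chr1:102988249-102988548 on the plus strand, and that of Etfdh at chr2:167060709-167061008 on the minus strand.
Etfa: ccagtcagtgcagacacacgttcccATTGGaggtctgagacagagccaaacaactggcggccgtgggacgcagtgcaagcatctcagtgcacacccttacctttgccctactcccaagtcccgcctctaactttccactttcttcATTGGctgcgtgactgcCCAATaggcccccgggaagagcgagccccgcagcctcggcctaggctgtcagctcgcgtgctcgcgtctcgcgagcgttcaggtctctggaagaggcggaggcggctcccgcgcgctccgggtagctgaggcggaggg
Etfb: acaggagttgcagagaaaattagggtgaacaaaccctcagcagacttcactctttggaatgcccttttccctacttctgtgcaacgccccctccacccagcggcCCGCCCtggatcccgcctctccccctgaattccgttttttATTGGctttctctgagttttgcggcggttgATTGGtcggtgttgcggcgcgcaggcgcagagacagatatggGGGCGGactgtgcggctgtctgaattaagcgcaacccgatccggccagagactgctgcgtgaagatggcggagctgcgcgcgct
Etfdh: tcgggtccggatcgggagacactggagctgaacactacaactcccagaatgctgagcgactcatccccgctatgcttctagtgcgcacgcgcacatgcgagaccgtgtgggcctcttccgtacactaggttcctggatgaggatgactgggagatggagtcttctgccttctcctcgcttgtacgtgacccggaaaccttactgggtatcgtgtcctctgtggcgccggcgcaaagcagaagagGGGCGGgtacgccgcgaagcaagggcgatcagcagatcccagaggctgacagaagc

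The windows shared no marked motif across all 3 genes, since Etfa held 3 CCAAT boxes and no GC box, Etfb 2 of each, and Etfdh 1 GC box alone.

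Etfb read 9.35, 9.77 and 9.94 in Con 1 to 3 and 9.95, 10.82 and 10.16 in RAP 1 to 3. Every RAP value lay above every control value, though RAP 1 exceeded Con 3 only narrowly. Etfb rose by 0.63 ± 0.20 log2 (SE, 95% interval 0.10 to 1.15), that is 1.54-fold, with an unadjusted limma p of 0.0286 and an adjusted p of 0.723. The call was lost without pair 1 or without pair 2, with changes of 0.64 without pair 1 and 0.41 without pair 2.

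Etfdh read 8.47, 8.47 and 8.95 in controls and 8.80, 9.71 and 9.18 in RAP rats. RAP 1 lay below Con 3, so that the groups overlapped, and the change of 0.60 ± 0.25 log2 (interval -0.04 to 1.24) had an unadjusted limma p of 0.0616. Etfa gave 10.24, 10.35 and 10.73 against 10.71, 11.32 and 10.78. Its change was 0.50 ± 0.21 log2 (interval -0.06 to 1.05), with an unadjusted limma p of 0.0702, and only RAP 1 fell inside the control range. All 3 genes were called higher when pair 3 was left out, and in the unpaired fit without the array Con 3.

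**Figure D3:**
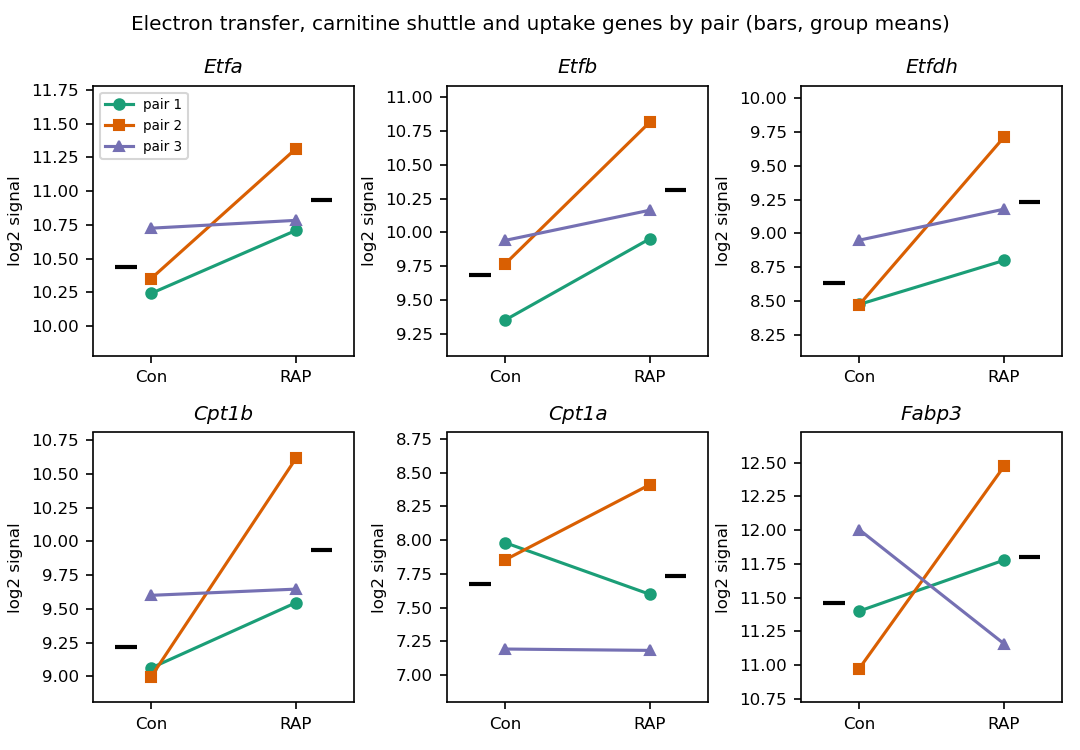
Log2 signal of 6 genes in the control and RAP rat of each pair, lines joining the rats of a pair and bars giving group means, with axes that all span 2 log2 units. The electron transfer genes and Cpt1b were higher in the RAP rat of every pair, whereas Cpt1a and Fabp3 differed in sign between pairs.

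Uptake genes were next, with a median change of 0.47 log2 and mean differences of 0.27, 1.32 and -0.13 in pairs 1 to 3. Lpl, the lipase that frees fatty acids from lipoproteins, read 9.95, 10.27 and 10.40 in controls and 10.24, 11.30 and 10.63 with RAP, higher within every pair but with RAP 1 inside the control range. Its change was 0.52 ± 0.21 log2 (interval -0.03 to 1.07), with an unadjusted limma p of 0.0591. Acsl1, the main long-chain acyl-CoA synthetase of the heart, stood at 9.22, 8.94 and 9.60 in controls and 9.25, 10.71 and 9.79 with RAP. Pair 2 supplied nearly all of its change of 0.67 ± 0.38 log2, with a difference of 1.77, the largest of any of the 31 genes in any pair, beside 0.03 and 0.20 in pairs 1 and 3.

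Fabp3, the heart's cytosolic fatty acid binding protein, was the least even. It read 11.40, 10.97 and 12.00 in controls and 11.78, 12.47 and 11.16 with RAP, so that the lowest control and the highest RAP array formed pair 2 and pair 3 ran the other way. The differences of 0.38, 1.499 and -0.85 averaged 0.34 ± 0.46 log2, with an unadjusted limma p of 0.489. Cd36, the membrane fatty acid translocase, had differences of 0.38, 0.99 and -0.10 and a change of 0.42 ± 0.24. A dimmer probe set of Cd36 gave 0.29, 1.04 and -0.30, the same order of pairs.

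Cd36 and Lpl are also expressed in fat cells, and Cd36 in endothelium. The 13 adipocyte markers measured of 15 deviated by -0.84, -0.56 and 0.56 in the controls and -0.49, -0.23 and 1.56 with RAP, summing to 802.2 to 1988 and 875 to 5947, highest in RAP 3, while the uptake genes were highest in RAP 2. Of the 13, 6 were called higher with RAP, against 2.87% of all genes, among them Adipoq at 1.09 and Thrsp at 1.75 log2. The mean change was above 0 for 11 of the 13, with Cfd at -0.26 and Slc7a10 at -0.03 below it. The median difference of the 13 was above 0 in every pair, at 0.30, 0.40 and 0.95. The 13 endothelial markers measured of 14 ranged from -0.36 in Con 1 to 0.23 in Con 3, with sums of 5374 to 8625 in controls and 6384 to 7044 with RAP. The part of either cell type in the uptake values was not tested.

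Within the carnitine shuttle the isoforms of carnitine palmitoyltransferase 1, which makes acylcarnitine at the outer mitochondrial membrane, differed in their values. Cpt1b, the muscle isoform, read 9.06, 8.997 and 9.60 in controls and 9.55, 10.62 and 9.65 with RAP, above its own control in every pair. Its mean change of 0.72 ± 0.33 log2 was the largest of the 31 genes, with an interval of -0.15 to 1.58 and an unadjusted limma p of 0.0860, and was 0.26 without pair 2, below Etfb at 0.41 and Etfdh at 0.28. Cpt1a, the isoform that leads in liver, read 7.98, 7.85 and 7.19 in controls and 7.60, 8.41 and 7.18 with RAP, a change of 0.05 ± 0.22. Cpt1a was alone among the shuttle genes in being lowest in pair 3 in both groups.

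The change of Cpt1b exceeded that of Cpt1a in each pair, by 0.87, 1.06 and 0.05 log2 and by 0.66 ± 0.53 on average (SD, n = 3 pairs). The exact two-sided sign-flip test gave p = 0.25, the smallest that 3 pairs allow, and the contrast was chosen after its values were seen. Slc25a20, the carnitine-acylcarnitine carrier of the inner membrane, had differences of -0.13, 1.104 and 0.36 and a change of 0.45 ± 0.27. Cpt2, which restores acyl-CoA inside, had differences of 0.20, 0.71 and -0.67 and a change of 0.08 ± 0.29, so that the last enzyme of the shuttle ran opposite to its carrier in pairs 1 and 3.

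Malonyl-CoA, the inhibitor of carnitine palmitoyltransferase 1, is made at the mitochondrial surface by the enzyme of Acacb and removed by that of Mlycd. Acacb had differences of 0.27, 1.38 and -0.42 and a change of 0.41 ± 0.37 log2, and Mlycd had 0.12, 0.76 and -0.12 and a change of 0.25 ± 0.21. The maker and the remover of the inhibitor thus shared their sign within every pair. Acacb exceeded Mlycd by 0.15 ± 0.47 log2 on average (SD, n = 3 pairs, exact sign-flip p = 0.75).

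The promoter of Acacb is printed because it was the only window of the 26 searched to hold, on either strand, the motif AGGTCA directly preceded by GGNCAA, a direct repeat that PPAR and HNF4 bind. It lies at chr12:48138165-48138464 on the minus strand of GRCr8, the capitals marking the repeat in its reverse complement.
Acacb: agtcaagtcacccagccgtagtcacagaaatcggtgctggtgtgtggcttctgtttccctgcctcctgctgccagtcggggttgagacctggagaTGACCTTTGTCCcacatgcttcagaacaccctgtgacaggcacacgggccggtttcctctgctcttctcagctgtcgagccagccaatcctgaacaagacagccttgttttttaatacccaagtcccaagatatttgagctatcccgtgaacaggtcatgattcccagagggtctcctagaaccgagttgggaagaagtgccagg

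Promoter windows were listed for 26 of the 31 genes, and none for Acaa2, Acadl, Cpt1b, Decr1 and Lpl. The repeat of Acacb was present in 3.85% of the 26 windows and in 0.0627% of all 33469 rat windows, and neither a repeat of AGGTCA spaced by 1 base nor the estrogen-related receptor site, which is AGGTCA preceded by TCA, occurred in any of the 26. The nuclear receptor motif AGGTCA itself, which is contained in all of these, occurred on either strand in 8 windows (30.8%), those of Acacb, Acad11, Acadvl, Echs1, Eci1, Eci2, Hadhb and Ucp3, against 16.2% of all windows and 12.6% of those of measured genes. GC boxes stood in 16 windows (61.5%), near the 60% of measured genes. CCAAT boxes were held by 9 (34.6%, against 37.7%) and TATAAA by 3 (11.5%, against 7.6%). These matches are letters in a window and no test was made of them.

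The acyl-CoA dehydrogenases take the first electrons from chains of different lengths, and their median change was 0.44 log2. Acad9, which also assembles respiratory complex I, read 7.46, 7.24 and 7.74 in controls and 7.83, 8.02 and 7.90 with RAP. Its groups did not overlap, which was true of 2 of the 31 genes, Acad9 and Etfb, and with RAP above control of 7.57% of all genes. The change of 0.44 ± 0.17 log2 (interval -0.02 to 0.89) had an unadjusted limma p of 0.0574, and Acad9 was called with Etfb in the fit without pairing, which called 3.62% of all genes higher.

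The enzymes for very long, long and medium chains had similar changes. Acadvl had differences of 0.09, 1.04 and 0.31 and a change of 0.48 ± 0.23 log2, Acadl had 0.24, 1.31 and 0.04 with 0.53 ± 0.29, and Acadm had 0.51, 1.16 and -0.18 with 0.50 ± 0.28. Acads, for short chains, had the smaller change of 0.18 log2 with differences of 0.07, 0.64 and -0.17. Acad10 and Acad11, less studied members of the family, had the smallest pair 2 differences of it, 0.06 and 0.18 log2. Acad10 read 6.61, 6.32 and 6.93 in controls and 6.91, 6.38 and 6.19 with RAP, and so was the only one of the 31 genes highest in a control array.

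Hadha and Hadhb encode the trifunctional protein, which carries long chains through hydration, oxidation and thiolysis, while Echs1, Hadh and Acaa2 encode the hydratase, dehydrogenase and thiolase that act on shorter chains. These 5 genes had changes between 0.20 and 0.50 log2. The subunits of the trifunctional protein had similar differences, Hadha 0.20, 0.87 and -0.04 and Hadhb 0.07, 1.13 and -0.04 log2 in pairs 1 to 3. Acaa2 was the only gene of the step above its control in every pair, at 0.03, 1.28 and 0.19. The dimmer probe set of Hadha gave 0.36, 0.78 and -0.28.

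Unsaturated chains need the isomerases of Eci1 and Eci2 and the reductase of Decr1. All 3 genes were higher in RAP 2 than in Con 2, by 0.59, 1.246 and 1.04 log2, and lower in RAP 3 than in Con 3, with differences of -0.11, -0.26 and -0.23. Their changes were 0.14, 0.39 and 0.28 log2.

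Ppara, the nuclear receptor that drives transcription of many of these genes, read 6.10, 5.98 and 6.70 in controls and 6.18, 7.12 and 6.72 with RAP. It was above its control in every pair, by 0.07, 1.14 and 0.03, with a change of 0.41 log2. Its target Acot2, a mitochondrial thioesterase, had differences of 0.11, 1.35 and -0.51. Ucp3, a mitochondrial carrier that PPARA also induces, was the dimmest of the 31 genes, with 3 of its 6 values under the filter of 5 and the highest, 5.23, in RAP 3.

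**Figure D4:**
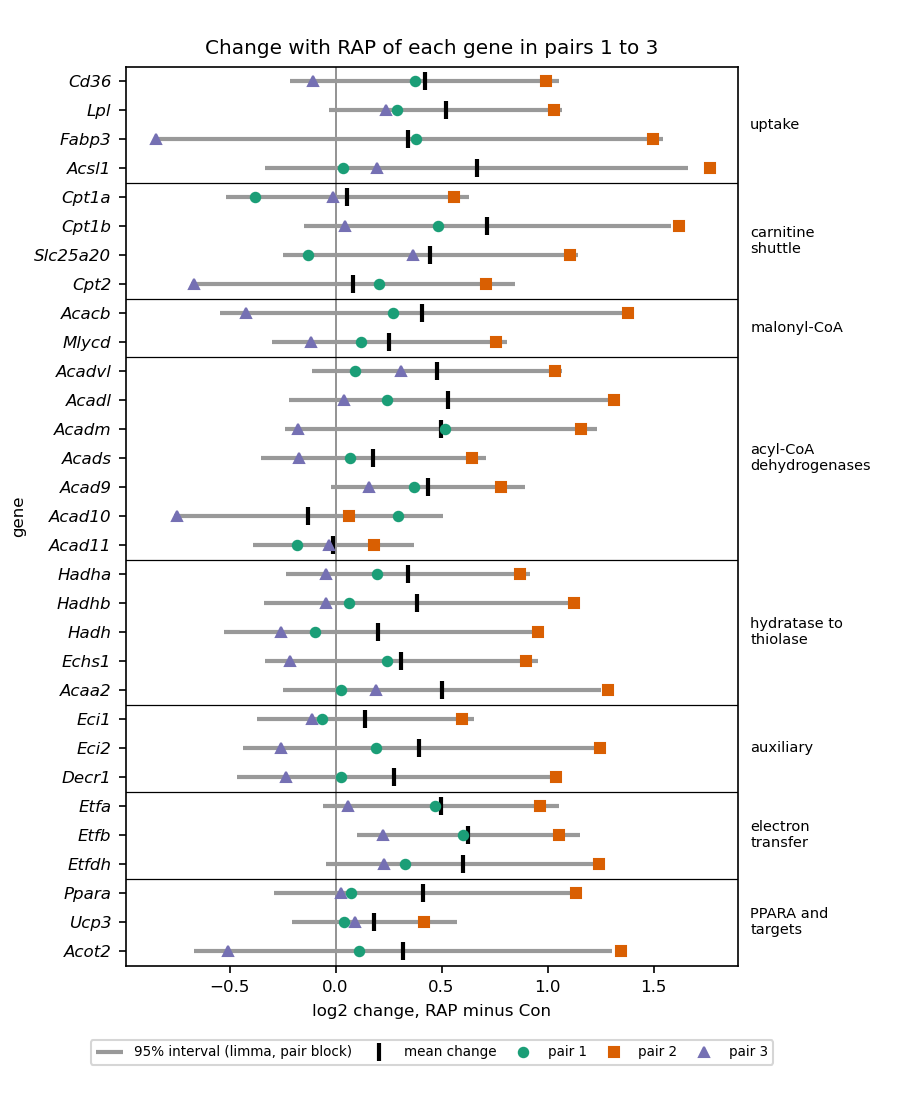
Log2 change from control to RAP of each gene, with points for pairs 1 to 3, a tick for the mean change and a bar for the 95% interval from limma with the pair as a block. The Etfb interval lay above 0, from 0.10 to 1.15, and the pair 2 points lay right of the others for all but Acad10.

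Other genes of fatty acid metabolism and related oxidation were taken from 6 lists of 141 genes, of which 106 were measured. The lists also hold genes of amino acid breakdown, among them Acadsb, Ivd and Pccb. Of the 106 genes, 10 were called higher and 3 lower (5 without pairing), beside 2.87% and 3.28% of all genes. The share called lower was near that of all genes. Their median change was 0.17 log2. Of the 13 called genes, 12 lost the call in at least 1 of 20 alternative settings, Acss2 being the exception. Of 20 transport and activation genes 3 rose, namely Acss2, an acetyl-CoA synthetase, by 0.76 ± 0.15, the lipoprotein receptor gene Vldlr by 0.74 ± 0.16, and Got2 by 0.50 ± 0.18, while the fatty acid transport protein gene Slc27a3 fell by 0.58 ± 0.16. Acss2 read 8.30, 8.16 and 8.37 in controls and 8.88, 9.16 and 9.06 with RAP, and Vldlr read 8.65, 8.67 and 9.14 against 9.59, 9.52 and 9.57. Every RAP value of both genes lay above every control value, as for 16 of the 106 measured genes and 7.57% of all genes. The 3 RAP rats lay close together in both.

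Of 18 further genes of carnitine and acyl-CoA handling, Prkaa2, a catalytic subunit of AMP-activated kinase, rose by 0.72 ± 0.27, Them4 by 0.64 ± 0.18 and Acot7 by 0.40 ± 0.14, and Cpt1c, the brain isoform of carnitine palmitoyltransferase 1, fell by 0.47 ± 0.17. Of 17 further mitochondrial oxidation genes 3 rose, namely Acadsb by 0.74 ± 0.16, Ivd by 0.58 ± 0.18 and Pccb by 0.40 ± 0.14. The acyl-CoA dehydrogenases encoded by Acadsb and Ivd pass electrons to electron transfer flavoprotein, as those for fatty acids do.

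Of 20 regulators and PPAR targets, Pparg, the receptor of fat cells, rose by 0.53 ± 0.19. Rxra, the partner of the PPARs, fell by 0.43 ± 0.15. The call of Pparg was lost in 10 of 20 alternative settings and that of Rxra in 8. The change of Pparg was 0.12 without RAP 3, in a fit without pairing. Its highest value, 7.22, was in RAP 3, the array highest in adipocyte markers, and the part of fat cells in it was not tested. Pdk4, a PPARA target that holds back glucose oxidation, read 7.79, 7.16 and 7.86 in controls and 8.18, 9.53 and 8.11 with RAP. The difference of 2.38 log2 in pair 2 stood beside 0.40 and 0.25 in the others, and the change was 1.01 ± 0.47, with an unadjusted limma p of 0.0858. The coactivator gene Ppargc1a had differences of 0.62, 1.57 and -0.54. Angptl4, another PPAR target, ran the other way, at -0.89, -1.80 and 1.16 in pairs 1 to 3, with a change of -0.51 ± 0.58.

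Neighbouring routes of energy metabolism are given for their own values. Of all genes 2.87% were called higher and 3.28% lower, and 3.62% were called higher without pairing. Of 17 genes listed for the tricarboxylic acid cycle, 8 were called higher (13 without pairing) and 0 lower. The 17 include the malic enzyme genes Me2 and Me3, which lie outside the cycle itself, and Me3 was among the 8. The list had a median change of 0.52 log2 and mean differences of 0.52, 0.79 and 0.16 in pairs 1 to 3. Of 33 complex I genes 2 were called higher (4 without pairing), with a median of 0.26 and mean differences of 0.45, 0.77 and -0.46. Of 23 glycolysis genes 2 were called higher and 1 lower, with a median of 0.26 and mean differences of 0.13, 0.24 and 0.22. The fatty acid genes had mean differences of 0.17, 0.99 and -0.09. Their range between pairs was wider than that of the cycle or glycolysis and narrower than that of complex I. RAP 2 was the highest array for all 33 complex I genes, 14 of the 17 cycle genes and 11 of the 23 glycolysis genes. It was so for 21.8% of all genes. No test was made between the lists.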

How the data were processed

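Left atrial RNA of 6 rats, 3 per group, was measured on 1 Affymetrix array each. The deposited values are log2 signals that the authors normalised by RMA in Partek, per the labels and methods, with array medians of 5.82 to 5.85 and 62.6 to 63.8% of probe sets above 5. The number of arrays limits the precision, and each array is a separate rat.

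Of 29214 probe sets, 15310 carried 1 gene symbol, 323 several and 13581 none in the platform annotation, and 15279 of the named ones matched the current gene list. Probe sets that exceeded 5 on the log2 scale on any array were kept, and the brightest stood for its gene, leaving 11237 genes. limma 3.58.1 in R 4.3.3 was fitted with the pair as a block, and Benjamini-Hochberg adjustment ran over all genes. Arrays were paired by the replicate numbers of the labels, because the study's design was paired, but no label states which rats were paced together. The deviations of arrays so paired from their group means correlated at 0.22, -0.29 and -0.33. The paper reports similarity within its pairs by principal component analysis. Values given for pairs 1 to 3 therefore rest on this matching of numbers. Errors are moderated SE with 2 residual and 2.72 prior degrees of freedom. The fit was checked on simulated data. An exact permutation test of 3 against 3 cannot go below 0.1, and none was used.

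The members, lists and rule for named genes (all members, called pathway genes up to 4 a list, and fixed regulators) were chosen with earlier results of these data known. Alternatives were the pairing, the methods' t-test, moderation, array weights, filters, normalisation, the choice of probe set and leaving out pairs or arrays. Fits without a pair kept the pair block, and fits without a single array did not. The fit on all kept probe sets and the fits without Con 1, RAP 1, RAP 2 or RAP 3 were chosen after seeing the data.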

Additional observations from a re-analysis of the deposited data

How the results depend on the processing

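Over 20 alternatives, 17 of the 31 genes kept the sign of their change and 14 did not, and 0 were called lower in any. The number called higher was 2 without the replicate block, that is unpaired (Acad9 and Etfb), 0 by the methods' t-test and 7 with array weights. It was 2 without the filter, beside 388 of all 14506 genes. After quantile normalisation it was 2 (Etfb and Lpl), beside 373 of all 11210 genes. It ran from 0 to 12 when a pair or an array was left out, the fits without a single array being unpaired. Numbers in brackets are those called higher of all 11237 genes. The count was 9 without pair 3 (1046), 7 without Con 3 (772) and 12 without RAP 1 (400). It was 0 without pair 1 (48), pair 2 (172), Con 1 (155), Con 2 (203), RAP 2 (261) or RAP 3 (530). With all arrays kept, dropping the pairing changed no call among the 31 genes but that of Acad9. All genes called higher and lower numbered 322 and 369, against 119 and 115 by the t-test, 1236 and 1558 with array weights (2924 with adjusted p under 0.05), and 48 and 90 without pair 1 to 1046 and 1408 without pair 3. Pathway genes called higher were 4 by the t-test and 17 with array weights (2 to 23 with arrays left out), and those called lower 5 unpaired, 0 and 9 (0 to 7). Cycle genes called higher were 13 unpaired, 2 by the t-test and 15 with array weights (2 to 15), complex I genes 4, 0 and 21 (0 to 26), and glycolysis genes 1 by the t-test and 6 with array weights (1 to 7). With array weights the median of the fatty acid genes was 0.21 in place of 0.39, that of the shuttle 0.10 in place of 0.26 and that of the auxiliary enzymes 0.099 in place of 0.28. With arrays left out, the median of the fatty acid genes ran from 0.05 (without pair 2) to 0.60 (without pair 3), of uptake from 0.13 to 0.79, the shuttle from -0.04 to 0.50, malonyl-CoA control from -0.04 to 0.63, dehydrogenases from 0.14 to 0.56, hydratase to thiolase from 0.01 to 0.57, auxiliary enzymes from -0.09 to 0.53, electron transfer from 0.28 to 0.81, PPARA and targets from 0.05 to 0.60, the cycle from 0.35 to 0.76, complex I from -0.04 to 0.61 and glycolysis from 0.15 to 0.32.

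Array weights turned the sign of Cpt1a (-0.29), Slc25a20 (-0.004), Acad10 (0.23), Hadh (-0.015) and Eci1 (-0.009), and quantile normalisation that of Acad11 (0.003). Leaving out pairs or arrays gave ranges across 0 for Fabp3 (-0.23 to 0.94), Cpt1a (-0.28 to 0.33), Cpt2 (-0.23 to 0.46), Acacb (-0.075 to 0.83), Mlycd (-0.038 to 0.44), Acads (-0.052 to 0.35), Acad10 (-0.34 to 0.18), Acad11 (-0.11 to 0.076), Hadh (-0.18 to 0.43), Eci1 (-0.11 to 0.31), Eci2 (-0.035 to 0.72), Decr1 (-0.10 to 0.53), Acot2 (-0.20 to 0.73) and Angptl4 (-1.34 to 0.13). The cause was not tested. With 3 rats a group, a missed threshold does not show that values were alike.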

Other observations

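Peroxisomal oxidation, which shortens very long chains outside the mitochondrion, had 13 measured genes. Of these, 0 were called higher or lower by limma, beside 2.87% and 3.28% of all genes. Their median change was 0.06 log2, and their mean differences were -0.07, 0.35 and -0.08 in pairs 1 to 3. The 18 measured genes of triglyceride storage and lipolysis had no gene called either, beside the same shares of all genes, and a median of 0.20. Lists this short would hold few calls at those shares. Pnpla2, the adipose triglyceride lipase, was higher with RAP in every pair, by 0.14, 1.00 and 0.35 log2, with an unadjusted limma p of 0.0693. Plin5, the lipid droplet protein of oxidative muscle, differed by -0.33, 1.48 and -0.42. Adipocyte markers were highest in RAP 3, where Plin5 read 5.81 and Pnpla2 9.68.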
